A study of Homo sapiens with 24 samples.

Results

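Mitochondrial ribosomal protein genes, whose symbols begin with MRPL or MRPS after the large and the small subunit, were followed across 24 RNA sequencing libraries of 2 human cell lines. A gene was included when its symbol was MRPL or MRPS plus a number, with an optional last letter, and when it reached at least 1 FPKM (fragments scaled to gene length and to the total of the library) in at least 3 of the 24 libraries. Of 26450 genes in the deposited table, 77 met this rule, 49 named MRPL and 28 named MRPS, among 13392 genes that passed the same FPKM minimum. One more gene, MRPS24, matched by name and was left out, with 0 to 0.570 FPKM and a third-highest value of 0.236 FPKM. The RefSeq annotation places a readthrough gene, URGCP-MRPS24, over MRPS24, and URGCP itself had 5.81 to 8.86 FPKM. Whether this overlap lowered the counts of MRPS24 was not tested. The member nearest above the minimum was MRPS33, whose third-highest value was 8.34 FPKM, and every member exceeded 1 FPKM in all 24 libraries.

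The mitochondrial ribosome translates the few messenger RNAs that mitochondrial DNA encodes for proteins, all of which are subunits of the respiratory chain or of ATP synthase. Its RNA is made inside the mitochondrion, but all of its proteins are encoded in the nucleus, translated in the cytosol and imported. Many of these proteins have a counterpart in the bacterial ribosome, while the others are found only in mitochondrial ribosomes. By these roles, 51 members belonged to the large subunit (30 with a bacterial counterpart and 21 mitochondria-specific) and 25 to the small subunit (15 and 10). MRPS30 and MRPS18A, despite their names, sit in the large subunit and are counted there, MRPS18A as mitochondria-specific because its place in that subunit has no bacterial counterpart. MRPS36 was the remaining member; despite its name it is known as a component of the alpha-ketoglutarate dehydrogenase complex.

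The libraries came from HEK293T, a line derived from human embryonic kidney that expresses the large T antigen of simian virus 40, and from PANC-1, an epithelial line from a carcinoma of the pancreatic duct. Cells of each line were grown in AggreWell plates, whose microwells gather cells into aggregates, in capillary containers that rotate about 2 axes (DRCC) at 1 rpm, in the same containers at 30 rpm, and as flat 2D cultures. Each of these 8 groups held 3 libraries of total RNA, and the groups of a line carried no further treatment in the labels. Times in culture were not stated in the labels. Each line is a single genetic background. Nothing in the labels says that the libraries of a group came from separate cultures, so p-values are relative to the spread among these libraries, and that spread may be technical.

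The FPKM values corresponded to 32021638 to 39556154 fragments per library, and members had between 53 and 18226 fragments in a library, with a median of 2278. The line labels were checked against markers. CD44, a surface glycoprotein of many carcinoma cells, averaged 153 to 250.3 FPKM over the PANC-1 groups and at most 0.00289 FPKM over the HEK293T groups. All 10 PANC-1 markers were higher in every PANC-1 library than in every HEK293T library, although the duct keratins KRT7 and KRT19 reached no more than 1.61 and 3.27 FPKM. Of 9 HEK293T markers, 4 (NEFL, INA, LIN28B and TUBB2B) were higher in every HEK293T library, PAX2 was higher in every PANC-1 library, and LHX1 overlapped between the lines. CRABP1, at most 0.213 FPKM in a library, SOX11 and STMN2 were near 0 in both lines. Of 10 markers of other cell types, 8 were at most 0.2 FPKM in every library, among them PTPRC, CD3E, PECAM1, CDH5 and VWF of blood and endothelial cells. CD68, a lysosomal protein abundant in macrophages, had 0.893 to 1.51, 2.43 to 2.92 and 2.76 to 3.87 FPKM in HEK293T AggreWell, 1 rpm and 30 rpm against 0.431 to 0.601 FPKM in 2D, and means of 48.4 to 55.4 FPKM over the PANC-1 groups, and COL3A1, a collagen of fibroblasts, had means of 3.88 to 7.19 FPKM. The 10 markers summed to 7.03 to 7.47 FPKM over the HEK293T groups and 55.4 to 60.7 FPKM over the PANC-1 groups, and their part in the results was not tested.

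In 2D culture the members spanned a wide range of levels per length. The mean over the 3 libraries ran between 6.54 and 280.3 FPKM in HEK293T, with a median member of 51.6 FPKM, and between 4.54 and 259.5 FPKM in PANC-1, with a median member of 42.6 FPKM. MRPL12, whose product forms the flexible stalk that recruits translation factors, was the most abundant in HEK293T 2D libraries at 280.3 ± 7.33 FPKM (SD, n = 3). It was followed by MRPS34 at 248 FPKM, MRPL37 at 243 FPKM, MRPL41 at 231 FPKM and MRPS26 at 192 FPKM. The order differed in PANC-1, where MRPS12, a protein of the decoding centre, came first at 259.5 ± 6.26 FPKM, ahead of MRPS6 at 172 FPKM, MRPL27 at 144 FPKM, MRPL3 at 139 FPKM and MRPL51 at 137 FPKM. The lowest members were MRPL42, MRPS33 and MRPL19 in HEK293T, at 6.54, 8.36 and 12 FPKM, and MRPS28, MRPL42 and MRPS33 in PANC-1, at 4.54, 5.96 and 6.14 FPKM. These are levels per length of the gene model. MRPL42 has a model of 15578 bases, the longest among the members, whose median length was 1552 bases against 3898 bases over all genes tested.

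The 77 genes together took a smaller share of all fragments in every 3D format than in 2D, in both lines. In HEK293T the share was 0.576 to 0.581% of fragments in AggreWell, 0.510 to 0.521% in DRCC at 1 rpm, 0.512 to 0.523% in DRCC at 30 rpm, and 0.778 to 0.798% in 2D. In PANC-1 it was 0.548 to 0.555% in AggreWell, 0.483 to 0.486% at 1 rpm, 0.513 to 0.529% at 30 rpm, and 0.632 to 0.647% in 2D. No library of a 3D format reached the lowest 2D library of its line. In bulk RNA, fewer cells of a kind and less RNA per cell cannot be told apart, so these shares describe the culture as a whole.

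**Figure D1:**
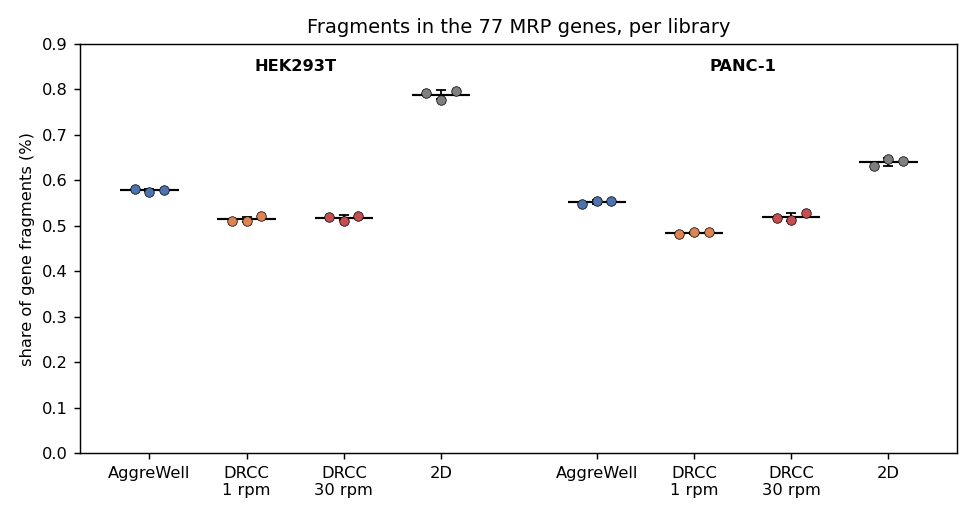
Share of all fragments (percent, vertical axis) that fell on the 77 mitochondrial ribosomal protein genes in each library of HEK293T and PANC-1, by culture format; points are libraries, bars the mean and whiskers the SD of 3 libraries. All 3D libraries lie below the 2D libraries of their line, and the 2D share was higher in HEK293T (mean 0.789%) than in PANC-1 (mean 0.641%).

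Gene by gene, most members fell in the 3D formats. Changes were fitted with limma on log2(FPKM + 1) and called at a Benjamini-Hochberg adjusted p under 0.05 over all genes tested in the comparison, 12548 in HEK293T and 11585 in PANC-1; adding 1 understates the change of genes with few FPKM. In HEK293T AggreWell against 2D, 64 of 77 members were called lower, where 26.8% of all genes tested were, and 6 were called higher, where 48.6% of all genes were. At 1 rpm against 2D, 65 members were lower (31.7% of all genes) and 8 higher (53.1% of all genes). At 30 rpm against 2D, 64 were lower (35.5% of all genes) and 10 higher (49.6% of all genes). After median-ratio scaling of the libraries, 5 members at 1 rpm and 6 at 30 rpm were called higher. The median member changed by -0.46, -0.60 and -0.64 on the log2 scale in AggreWell, at 1 rpm and at 30 rpm, whereas the median gene tested changed by 0.12, 0.18 and 0.13.

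PANC-1 members moved in the same direction. In AggreWell against 2D, 56 members were lower (24.1% of all genes) and 8 higher (45.9% of all genes), or 4 higher after median-ratio scaling. At 1 rpm against 2D, 63 were lower (33.9% of all genes) and 11 higher (52.3% of all genes), a split that became 69 lower and 3 higher after that scaling. At 30 rpm against 2D, 57 were lower (32.2% of all genes) and 13 higher (53.6% of all genes), and 65 lower and 4 higher after scaling. The median member changed by -0.27 in AggreWell, -0.48 at 1 rpm and -0.34 at 30 rpm, beside 0.098, 0.15 and 0.17 for the median gene tested. With the trend over gene length removed, the value at 30 rpm was -0.55. The 3 comparisons of a line share its 2D libraries and are not independent of one another.

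The direction of the median member did not turn with the scaling, but its size did. As deposited, the median gene lay above 2D in all 6 comparisons; after median-ratio scaling it lay between -0.076 and -0.039, when 44.6, 46.3 and 45.4% of all genes were called lower and 32.2, 38.4 and 39.5% higher in HEK293T, and 43, 45.6 and 45.1% lower and 28.9, 39.9 and 40.8% higher in PANC-1. The median member then changed by -0.69, -0.90 and -0.84 in HEK293T and by -0.46, -0.71 and -0.58 in PANC-1, in AggreWell, at 1 rpm and at 30 rpm. Relative to the median gene, 71, 71 and 67 members lay below it in HEK293T and 70, 69 and 67 in PANC-1 as deposited. Members are also short genes, and short and long genes changed by different amounts in these libraries. Within each of 4 classes of gene length, the median member lay below the median gene of its class in all 6 comparisons.

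**Figure D2:**
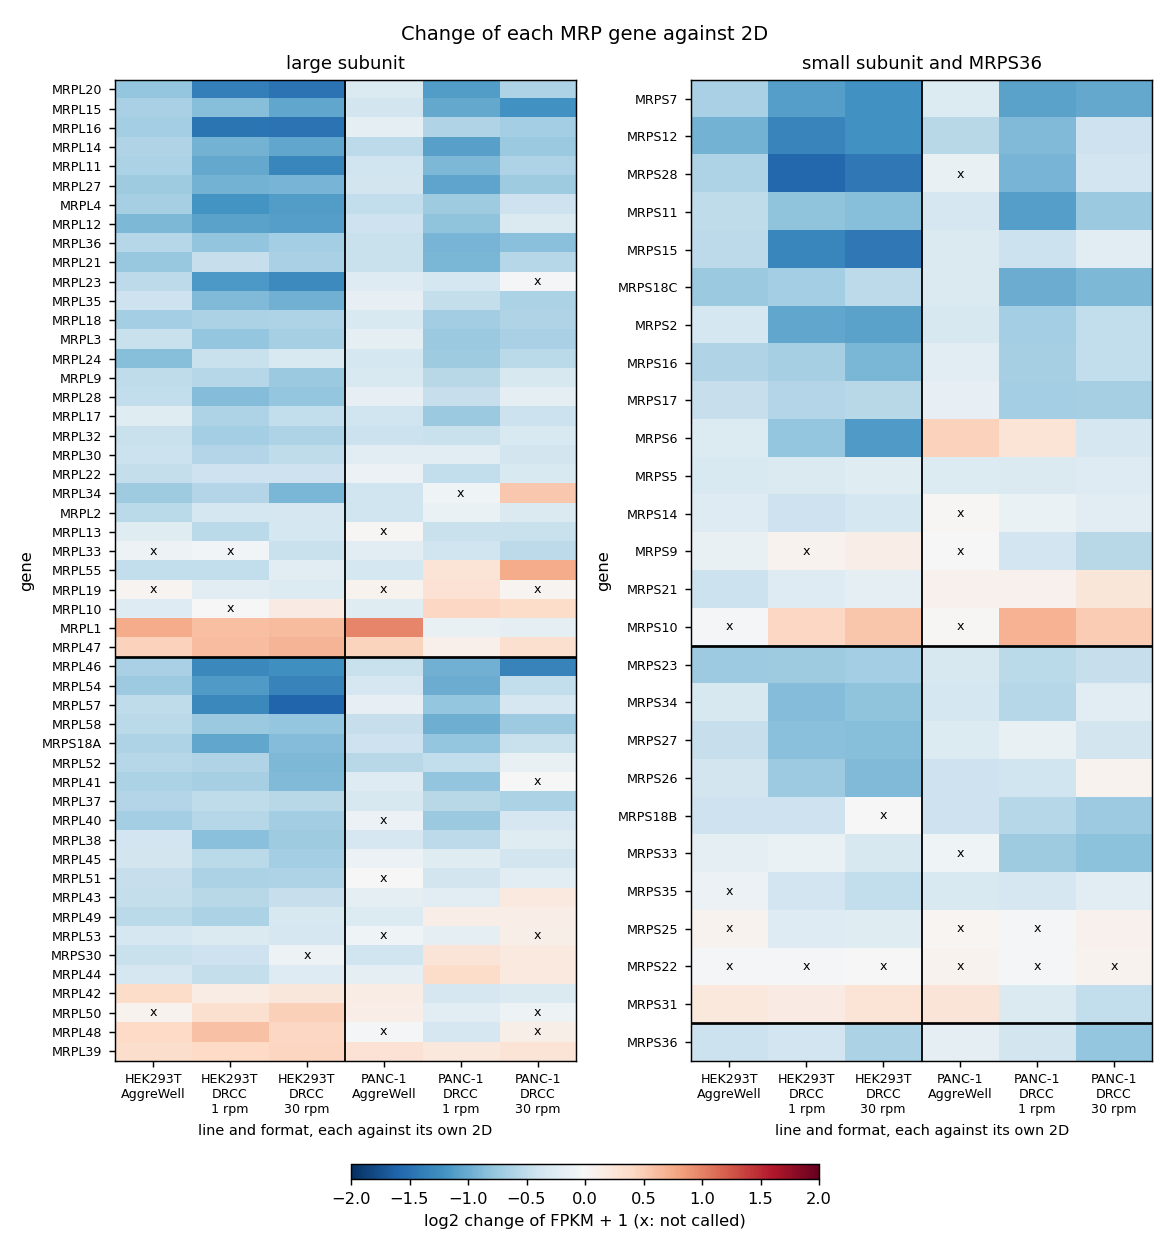
Log2 change against 2D (colour, blue lower and red higher) of each of the 77 members in AggreWell, DRCC 1 rpm and DRCC 30 rpm of HEK293T and PANC-1; rows are genes, grouped by subunit with a bacterial counterpart above the line and mitochondria-specific below it, and crosses mark changes that were not called. Blue fills most of both panels, with 64, 65 and 64 members called lower in HEK293T and 56, 63 and 57 in PANC-1, and a few rows such as MRPL47, MRPL39 and MRPL1 are red in several columns of these values as deposited.

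Most genes of both subunits and of both evolutionary classes were called lower. Of the 51 large-subunit genes, 43, 43 and 43 were lower and 5, 6 and 7 higher in HEK293T AggreWell, 1 rpm and 30 rpm, and 40, 42 and 36 were lower and 5, 8 and 9 higher in PANC-1. Of the 25 small-subunit genes, 20, 21 and 20 were lower and 1, 2 and 3 higher in HEK293T, and 15, 20 and 20 lower and 3, 3 and 4 higher in PANC-1. Of the 45 genes with a bacterial counterpart, 40, 39 and 40 were lower in HEK293T and 35, 37 and 37 in PANC-1. Of the 31 mitochondria-specific genes, 23, 25 and 23 were lower in HEK293T and 20, 25 and 19 in PANC-1. These counts stand beside 26.8, 31.7 and 35.5% of all genes lower and 48.6, 53.1 and 49.6% higher in HEK293T, and 24.1, 33.9 and 32.2% lower and 45.9, 52.3 and 53.6% higher in PANC-1. After median-ratio scaling the higher large-subunit genes numbered 5, 4 and 5 in HEK293T and 3, 2 and 3 in PANC-1, and the higher small-subunit genes 0, 1 and 1 in HEK293T and 1, 1 and 1 in PANC-1. No test between these classes was made.

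MRPL20, the counterpart of a bacterial protein that binds ribosomal RNA early in assembly of the large subunit, was among the members that fell most. In HEK293T it had 84.1, 83.6 and 85.6 FPKM in AggreWell, 53.2, 55.4 and 58.8 FPKM at 1 rpm and 52.9, 48.3 and 53.4 FPKM at 30 rpm, against 143, 142 and 152 FPKM in 2D. In PANC-1 it had 88.2, 88.1 and 91.7 FPKM in AggreWell, 50.3, 50.5 and 48.3 FPKM at 1 rpm and 69.7, 70.6 and 73.5 FPKM at 30 rpm, against 106, 111 and 111 FPKM in 2D. All 3D libraries lay below all 2D libraries of their line, and in PANC-1 the 1 rpm libraries were the lowest. The log2 change was -0.78, -1.37 and -1.48 in HEK293T (SE 0.044) and -0.29, -1.12 and -0.61 in PANC-1 (SE 0.030), with limma adjusted p of at most 1.2e-06.

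Other large-subunit genes with a bacterial counterpart fell with it. MRPL12, the stalk gene, had 149.8, 148 and 152 FPKM in HEK293T AggreWell, 133, 130.5 and 137 FPKM at 1 rpm and 130.1, 128 and 133 FPKM at 30 rpm, against 288, 273 and 279.7 FPKM in 2D, changes of -0.90, -1.07 and -1.10. In PANC-1 its changes were -0.42, -0.81 and -0.29. MRPL16, whose bacterial counterpart helps to shape the peptidyl transferase centre, had 39.6, 36.9 and 42 FPKM at 30 rpm against 114, 108 and 111 FPKM in 2D in HEK293T, a change of -1.47, and changed by -0.68 at 30 rpm in PANC-1. MRPL15, counterpart of another core rRNA-binding protein, was one of the members that fell most at 30 rpm in PANC-1, with 18.4, 18.5 and 17.8 FPKM against 43.9, 42.7 and 43.5 FPKM in 2D, a change of -1.21. MRPL14 changed by -0.59, -0.95 and -1.04 in HEK293T and by -0.53, -1.09 and -0.75 in PANC-1. In each of these comparisons the libraries of the 3D format did not overlap those in 2D.

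Among the mitochondria-specific proteins of the large subunit, MRPL57 and MRPL46 had the largest falls at 30 rpm, in HEK293T and in PANC-1. MRPL57 had 18.9, 17.7 and 16.1 FPKM in HEK293T AggreWell, 8.79, 10.5 and 10.2 FPKM at 1 rpm and 7.98, 7.34 and 7.91 FPKM at 30 rpm, against 26.5, 23.8 and 25.8 FPKM in 2D. Its log2 change at 30 rpm, -1.59 (SE 0.068, limma adjusted p 9.1e-11), was the lowest of all members in that comparison. MRPL46 had 34, 32.4 and 31.9 FPKM in PANC-1 AggreWell, 22, 22.3 and 23.4 FPKM at 1 rpm and 18, 16.9 and 16.9 FPKM at 30 rpm, against 47.2, 45.9 and 41.7 FPKM in 2D. Its change at 30 rpm, -1.33 (SE 0.045, limma adjusted p 3.8e-12), was the lowest of all members there. MRPL58, a peptidyl-tRNA hydrolase that rescues stalled ribosomes and is also built into the large subunit, changed by -0.54, -0.75 and -0.77 in HEK293T and by -0.45, -0.98 and -0.72 in PANC-1.

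In the small subunit, MRPS12 fell in each format of each line. It had 47.6, 43.4 and 47.7 FPKM in HEK293T AggreWell, 34, 33.7 and 38.3 FPKM at 1 rpm and 37.2, 38.5 and 38.5 FPKM at 30 rpm, against 92.3, 85.6 and 90.5 FPKM in 2D. PANC-1 libraries had 175, 179 and 177 FPKM in AggreWell, 141, 137 and 140.3 FPKM at 1 rpm and 196, 189 and 198 FPKM at 30 rpm, against 252, 262 and 264 FPKM in 2D. The 2D libraries were the highest in both lines, without overlap. Log2 changes were -0.94, -1.32 and -1.21 in HEK293T and -0.55, -0.89 and -0.42 in PANC-1, with limma adjusted p of at most 2.5e-09.

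MRPS28, the lowest member in PANC-1, had 7.92, 7.44 and 8.1 FPKM in HEK293T AggreWell, 3.5, 3.39 and 3.73 FPKM at 1 rpm and 3.81, 3.17 and 5.28 FPKM at 30 rpm, against 12.8, 12.6 and 12.1 FPKM in 2D. The change at 1 rpm, -1.57 (SE 0.11), was the lowest of all members in that comparison, while in PANC-1 AggreWell its -0.15 was not called and the libraries overlapped. RefSeq places a readthrough gene, TPD52-MRPS28, over MRPS28. Whether this overlap lowered the counts of MRPS28 was not tested. MRPS7, a primary rRNA-binding protein in bacteria, changed by -1.21 in HEK293T and -1.03 in PANC-1 at 30 rpm. MRPS15 changed by -1.43 in HEK293T and by -0.21 in PANC-1 at 30 rpm. Of the 3 MRPS18 paralogs, which share one bacterial ancestor and hold different places in the ribosome, MRPS18A changed by -0.87 in HEK293T and -0.44 in PANC-1 at 30 rpm. MRPS18C changed by -0.52 in HEK293T and -0.90 in PANC-1, and MRPS18B by 0.0040 in HEK293T, which was not called, and -0.72 in PANC-1. MRPS36, the member outside the ribosome, was lower as well, with changes of -0.64 in HEK293T and -0.77 in PANC-1 at 30 rpm.

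A small set of members went the other way. MRPL47, counterpart of a bacterial protein near the exit of the peptide tunnel, had 24.5, 25.8 and 25.7 FPKM in HEK293T AggreWell, 26.4, 30.3 and 29.1 FPKM at 1 rpm and 29.9, 28.6 and 30.3 FPKM at 30 rpm, against 18.4, 18 and 18.1 FPKM in 2D. All HEK293T 3D libraries exceeded all 2D libraries, with changes of 0.46, 0.62 and 0.67 (limma adjusted p at most 7.2e-07). PANC-1 libraries had 68.3, 65.8 and 66.7 FPKM in AggreWell, 53.6, 51.8 and 52.5 FPKM at 1 rpm and 58, 60.9 and 65.8 FPKM at 30 rpm, against 50.2, 48.3 and 48.1 FPKM in 2D. The PANC-1 changes were 0.45, 0.11 and 0.33; after median-ratio scaling the one at 1 rpm turned to -0.13 and the one at 30 rpm, 0.086, was no longer called. As deposited, the change at 1 rpm was also not called without 2D replicate 2 (0.098), without 2D replicate 3 (0.094) or without 1 rpm replicate 1 (0.093).

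MRPL39, a mitochondria-specific protein of the large subunit, behaved in a similar way at lower levels. It had 19.1, 19.2 and 18.9 FPKM in HEK293T AggreWell, 18.7, 19.7 and 20.6 FPKM at 1 rpm and 20.6, 19.7 and 19.8 FPKM at 30 rpm, against 14.3, 15.4 and 14.4 FPKM in 2D, changes of 0.35, 0.40 and 0.42. In PANC-1 it changed by 0.29, 0.22 and 0.27, of which median-ratio scaling left 0.11, -0.0094 and 0.041, the last pair not called. MRPS10, a protein of the head of the small subunit, was called higher in DRCC and not called in AggreWell. Its FPKM was 38.2, 40.0 and 36.5 at 1 rpm and 42.7, 41.4 and 42.1 at 30 rpm in HEK293T, against 29.2, 29.2 and 27 in 2D, and 126, 125 and 124 at 1 rpm and 110.2, 109 and 111 at 30 rpm in PANC-1, against 76.4, 77.5 and 77.7 in 2D. The changes in DRCC were 0.41 and 0.55 in HEK293T and 0.69 and 0.51 in PANC-1, and all of them stayed positive and called after median-ratio scaling, at 0.12, 0.34, 0.46 and 0.27. As deposited, MRPS22 was the member that passed no test against 2D in either line, with changes between -0.024 and 0.076. Its values after median-ratio scaling are not given here.

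**Figure D3:**
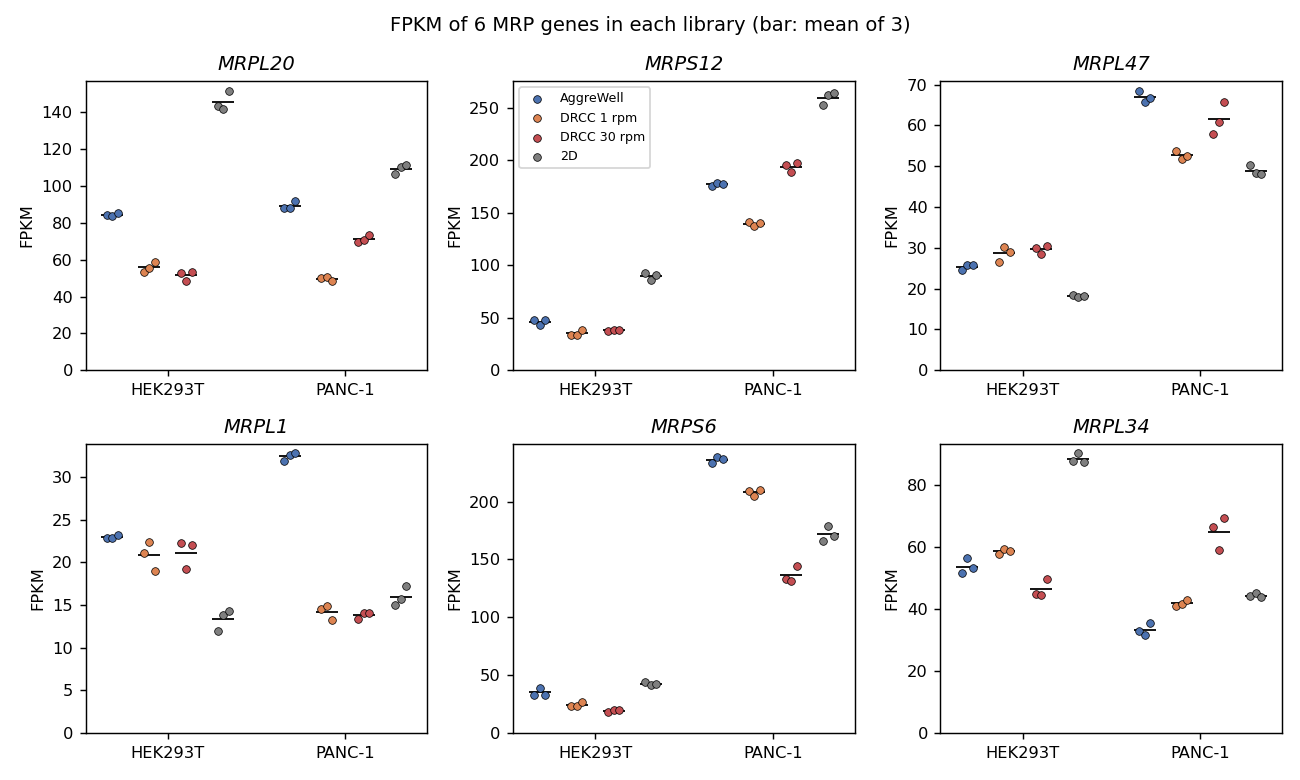
FPKM (vertical axis, from 0) of MRPL20, MRPS12, MRPL47, MRPL1, MRPS6 and MRPL34 in each library, by culture format, for HEK293T and PANC-1; points are libraries and bars the mean of 3. MRPL20 and MRPS12 are highest in 2D in both lines, MRPL47 is lowest in 2D as deposited, and MRPL1, MRPS6 and MRPL34 differ in pattern between the lines.

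The starts of 6 members are given to show the letters that known regulators of nuclear genes for mitochondrial proteins read. Promoters were taken from RefSeq on GRCh38.p14, from 250 bases before to 50 bases after the annotated start, and 68 of 77 members matched an entry. The 6 shown were chosen after their values were seen: MRPL20, MRPS34, MRPL17 and MRPL46, which were called lower in all formats, and MRPL47 and MRPL39, which were called higher as deposited. Capitals mark the ETS core CCGGAAG (read by GABPA), the YY1 core ATGGCGG and the NRF1 half-site GCATGCG on either strand. All 6 lie on the minus strand and are printed 5′ to 3′ in the direction of the gene, at chr1:1407244-1407543 for MRPL20, chr16:1773085-1773384 for MRPS34, chr11:6683291-6683590 for MRPL17, chr15:88467339-88467638 for MRPL46, chr3:179604589-179604888 for MRPL47 and chr21:25607432-25607731 for MRPL39.
MRPL20: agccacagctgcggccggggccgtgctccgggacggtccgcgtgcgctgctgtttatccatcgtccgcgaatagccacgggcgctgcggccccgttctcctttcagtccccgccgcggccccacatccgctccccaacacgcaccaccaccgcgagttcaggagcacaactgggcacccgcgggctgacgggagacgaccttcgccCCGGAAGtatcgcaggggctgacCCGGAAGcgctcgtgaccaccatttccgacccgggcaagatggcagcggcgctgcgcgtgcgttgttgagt
MRPS34: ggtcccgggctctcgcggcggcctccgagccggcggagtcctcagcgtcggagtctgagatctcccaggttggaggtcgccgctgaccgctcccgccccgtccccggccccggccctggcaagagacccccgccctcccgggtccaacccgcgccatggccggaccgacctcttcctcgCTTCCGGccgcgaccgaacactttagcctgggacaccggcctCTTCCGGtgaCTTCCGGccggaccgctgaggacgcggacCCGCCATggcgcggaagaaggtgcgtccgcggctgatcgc
MRPL17: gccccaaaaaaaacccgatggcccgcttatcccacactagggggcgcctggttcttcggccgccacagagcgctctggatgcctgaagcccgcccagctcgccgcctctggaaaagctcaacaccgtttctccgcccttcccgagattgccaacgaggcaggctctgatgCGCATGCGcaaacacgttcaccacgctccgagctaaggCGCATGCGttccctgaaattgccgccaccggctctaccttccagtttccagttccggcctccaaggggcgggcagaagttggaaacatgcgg
MRPL46: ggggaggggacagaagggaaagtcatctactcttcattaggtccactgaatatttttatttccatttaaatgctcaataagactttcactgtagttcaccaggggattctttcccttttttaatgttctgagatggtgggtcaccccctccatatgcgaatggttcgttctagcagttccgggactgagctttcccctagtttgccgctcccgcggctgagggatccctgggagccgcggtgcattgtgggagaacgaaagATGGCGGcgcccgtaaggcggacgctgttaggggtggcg
MRPL47: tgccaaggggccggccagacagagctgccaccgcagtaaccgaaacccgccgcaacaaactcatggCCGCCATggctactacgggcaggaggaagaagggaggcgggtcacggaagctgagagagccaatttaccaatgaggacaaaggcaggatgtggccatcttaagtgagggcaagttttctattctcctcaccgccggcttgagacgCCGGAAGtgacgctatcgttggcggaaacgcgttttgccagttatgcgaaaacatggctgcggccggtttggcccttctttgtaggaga
MRPL39: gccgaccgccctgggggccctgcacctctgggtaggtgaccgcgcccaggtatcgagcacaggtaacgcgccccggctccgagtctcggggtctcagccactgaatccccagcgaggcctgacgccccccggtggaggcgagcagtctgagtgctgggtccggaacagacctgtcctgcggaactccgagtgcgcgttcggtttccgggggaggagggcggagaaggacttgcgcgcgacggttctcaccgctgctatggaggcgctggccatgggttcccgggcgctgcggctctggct

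MRPL20 held the ETS core at -44 and -21 from the start, and MRPS34 held it on the other strand at -71, -29 and -19 together with a YY1 core at +10. MRPL17 held the NRF1 half-site on both strands at overlapping positions, which begin at -80 and -79 and again at -42 and -41. MRPL46 held a YY1 core at +11, MRPL47 an ETS core at -39 and a YY1 core at -184, and the window of MRPL39 held none of these 3 motifs. Members called lower in all formats could lack them too, among them MRPL12, MRPL57, MRPS11, MRPL11 and MRPL24, whose windows are not shown. In MRPS34 and MRPL46 the YY1 core lies past the start and overlaps an ATG in the direction of the gene. Whether such matches mark starts of translation was not tested. Over the 68 member promoters, 29 (42.6%) held the ETS core, against 19.5% of 10703 promoters of genes tested and 10.7% of all 27305 promoters in the table. The YY1 core was in 23 member promoters (33.8%), against 10.5% of genes tested and 5.72% of all promoters, with matches past the start included. By direction, the ETS core was in 42.1% of the 38 promoters of members called lower in all 6 comparisons with 2D and in 43.3% of the other 30, and the YY1 core in 31.6% and 36.7%. The NRF1 half-site was in 7 (10.3%), against 6.65% and 4.13%; the E-box CACGTG in 6 (8.82%), against 10.2% and 7.44%; and the SP1 box GGGCGGG in 33 (48.5%), against 55.3% and 32.9%. In the same split by direction, the NRF1 half-site was in 6 of the 38 and 1 of the 30 promoters (15.8% and 3.33%). The E-box was in 5 and 1 of them (13.2% and 3.33%), and the SP1 box in 16 and 17 (42.1% and 56.7%). These counts are small, and no test between the 2 sets was made. All of these matches are descriptions of letters in a fixed window, counted on both strands. The median GC content was 60.3% for members, 65.7% for genes tested and 58.3% for all promoters.

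The factors themselves did not move as one. GABPA had a mean of 16.1 FPKM in HEK293T AggreWell, 23.9 FPKM at 1 rpm and 27.6 FPKM at 30 rpm, against 7.43 FPKM in 2D, and rose by 1.04, 1.57 and 1.78. In PANC-1, GABPA rose by 0.54, 0.92 and 0.90. NRF1 was lower, with changes of -0.76 in AggreWell and -0.37 at 30 rpm in HEK293T and of -0.42, -0.60 and -0.47 in PANC-1. At 1 rpm in HEK293T its mean was 8.30 FPKM, against 9.75 FPKM in 2D. YY1 had means of 29.4, 30.1 and 29.3 FPKM in HEK293T AggreWell, 1 rpm and 30 rpm, against 33.8 FPKM in 2D. In PANC-1 YY1 had 21.6, 26.8 and 19.7 FPKM, against 23.1 FPKM in 2D. GABPB1 had 2.73, 4.66 and 5.23 FPKM in HEK293T, against 2.68 FPKM in 2D. In PANC-1 GABPB1 had 2.62, 1.305 and 1.82 FPKM, against 2.66 FPKM in 2D. MYC, known to drive genes of ribosome production, had a mean of 43.5 FPKM in HEK293T AggreWell, 102 FPKM at 1 rpm and 105 FPKM at 30 rpm, against 60.5 FPKM in 2D, and in PANC-1 17.6, 90.5 and 179.8 FPKM against 30.5 FPKM in 2D. MYC was thus lower in AggreWell and higher in both DRCC formats of each line, with called changes of -0.47, 0.74 and 0.79 in HEK293T and -0.75, 1.54 and 2.53 in PANC-1. PPARGC1A, a coactivator of mitochondrial biogenesis, was at or below 0.06 FPKM in all groups. Other regulators of the same list were expressed. Group means were 0.986 to 3.54 FPKM for PPARGC1B, 10.8 to 18 FPKM for PPRC1 and 16.35 to 26.57 FPKM for ESRRA.

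Subunits of the mitochondrial ribosome that carry other names were counted separately. Of these 5 genes, 4, 3 and 3 were lower in HEK293T and 4, 4 and 3 in PANC-1, in AggreWell, at 1 rpm and at 30 rpm. AURKAIP1, a small-subunit protein, had 87.3, 92.8 and 92 FPKM in HEK293T AggreWell, 49.4, 48 and 49.3 FPKM at 1 rpm and 42.6, 42.8 and 43.5 FPKM at 30 rpm, against 132, 127 and 140.3 FPKM in 2D, with changes of -0.55, -1.42 and -1.61. PTCD3, a pentatricopeptide-repeat protein of the same subunit, rose in HEK293T by 0.69, 0.72 and 0.93. In PANC-1, AURKAIP1 had means of 96.3, 71.6 and 106 FPKM, against 119 FPKM in 2D. PTCD3 had 15.2, 18 and 14.6 FPKM there, against 12.2 FPKM in 2D. DAP3 had means of 42.7, 56.35 and 58.5 FPKM in HEK293T, against 46.9 FPKM in 2D. Its means in PANC-1 were 51.7, 48.7 and 52.6 FPKM, against 67.3 FPKM in 2D. Of 26 assembly factors tested, 17, 20 and 17 were lower and 3, 4 and 6 higher in HEK293T, and 16, 15 and 14 lower and 5, 7 and 7 higher in PANC-1. Their median changes were -0.20, -0.38 and -0.34 in HEK293T and -0.19, -0.28 and -0.16 in PANC-1, and after median-ratio scaling -0.42, -0.65 and -0.52 in HEK293T and -0.38, -0.45 and -0.36 in PANC-1. With that scaling 23, 22 and 19 were lower and 3, 3 and 3 higher in HEK293T, and 21, 19 and 20 lower and 3, 3 and 4 higher in PANC-1. The counts of these and the following lists are read against the shares of all genes given for the members, 24.1 to 35.5% lower and 45.9 to 53.6% higher as deposited, and 43 to 46.3% lower and 28.9 to 40.8% higher after scaling.

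As deposited, the rest of the mitochondrial translation machinery held both lower and higher genes, and median-ratio scaling moved the balance towards lower. Of 17 translation factors, 7, 8 and 7 were lower and 5, 6 and 9 higher in HEK293T, and 6, 10 and 10 lower and 7, 7 and 5 higher in PANC-1. Scaled, they were 10, 10 and 8 lower and 4, 4 and 6 higher in HEK293T, and 10, 10 and 13 lower and 6, 4 and 3 higher in PANC-1. MTIF2, the initiation factor that brings the first tRNA, rose by 1.06, 1.51 and 1.56 in HEK293T and by 0.77, 0.72 and 0.69 in PANC-1. Counted with the translation factors, LRPPRC, which stabilises mitochondrial messenger RNAs, rose in HEK293T by 1.02, 0.98 and 1.09, while its partner SLIRP fell by 1.53 at 1 rpm and 1.60 at 30 rpm on the log2 scale. Of 19 mitochondrial aminoacyl-tRNA synthetases, which load tRNAs, 11, 13 and 12 were lower and 2, 3 and 3 higher in HEK293T, and 9, 9 and 9 lower and 3, 8 and 7 higher in PANC-1. Scaled, 16, 17 and 15 were lower and 1, 1 and 2 higher in HEK293T, and 14, 12 and 11 lower and 0, 3 and 3 higher in PANC-1. Of 17 genes of mitochondrial transcription and RNA processing, 8, 9 and 8 were lower and 6, 5 and 8 higher in HEK293T, and 6, 6 and 10 lower and 8, 5 and 5 higher in PANC-1. Scaled, 10, 11 and 8 were lower and 4, 5 and 7 higher in HEK293T, and 10, 11 and 12 lower and 4, 3 and 2 higher in PANC-1.

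Nuclear genes for respiratory chain subunits were mostly lower in HEK293T. Of 78 such genes, 69, 69 and 72 were lower and 3, 4 and 4 higher in HEK293T, with medians of -0.41, -0.61 and -0.77, and 74, 73 and 73 lower and 2, 3 and 2 higher after median-ratio scaling. In PANC-1, 31, 54 and 43 were lower and 15, 13 and 19 higher, with medians of -0.092, -0.27 and -0.15, and 59, 70 and 61 were lower and 4, 3 and 8 higher after median-ratio scaling. Genes of the cytosolic ribosome, 77 of them tested, had 61, 53 and 52 lower and 9, 16 and 14 higher in HEK293T, with medians of -0.35, -0.26 and -0.29. Median-ratio scaling made these 73, 69 and 68 lower and 2, 2 and 5 higher, with medians of -0.58, -0.55 and -0.50. In PANC-1 they had 62 lower and 5 higher in AggreWell, 19 lower and 32 higher at 1 rpm and 17 lower and 45 higher at 30 rpm; the medians of 0.036 and 0.17 in DRCC turned to -0.20 and -0.076 after median-ratio scaling, with 52 and 39 lower and 9 and 19 higher. In PANC-1 DRCC at 30 rpm the median member changed by -0.34 where the median cytosolic ribosomal protein gene changed by 0.17, a gap of the same sign after scaling (-0.58 and -0.076).

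**Figure D4:**
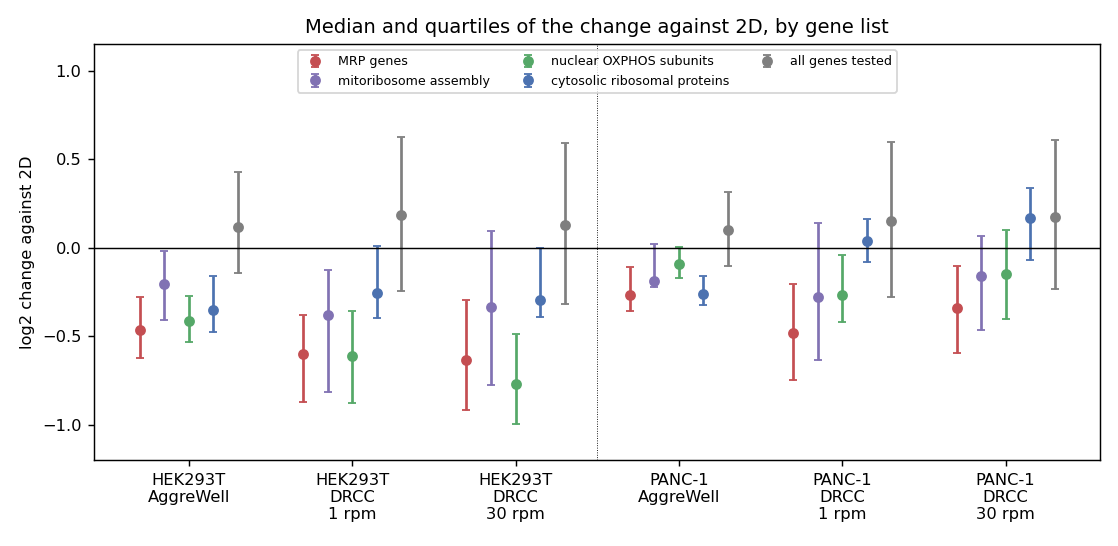
Median log2 change against 2D (points) with quartiles (bars) of the mitochondrial ribosomal protein genes, mitoribosome assembly factors, nuclear respiratory chain (OXPHOS) genes, cytosolic ribosomal protein genes and all genes tested, in each 3D format of HEK293T and PANC-1. The members have medians of -0.46, -0.60 and -0.64 in HEK293T and -0.27, -0.48 and -0.34 in PANC-1, below 0 throughout, and in PANC-1 DRCC the cytosolic ribosomal genes lie above 0 as deposited (0.036 and 0.17) and below it after median-ratio scaling (-0.20 and -0.076), which is not drawn.

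The messenger RNAs that the mitochondrial ribosome translates took a mean of 3.51% of fragments in HEK293T AggreWell, 3.47% at 1 rpm, 4.23% at 30 rpm and 4.77% in 2D. In PANC-1 they took 4.28% in AggreWell, 2.37% at 1 rpm, 1.60% at 30 rpm and 4.33% in 2D. PANC-1 AggreWell and 2D overlapped, at 4.25 to 4.31% and 4.10 to 4.68%, while 56 members were lower there as deposited. Of the 13 mitochondrially encoded genes, 13, 10 and 8 were called lower in HEK293T and 4, 11 and 13 in PANC-1, in AggreWell, at 1 rpm and at 30 rpm, and 13, 12 and 10 in HEK293T and 9, 12 and 13 in PANC-1 after median-ratio scaling. By share of fragments, the members were lowest at 1 rpm in PANC-1 and the mitochondrially encoded genes were lowest at 30 rpm, in each case without overlap between the speeds.

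DRCC was next compared with AggreWell within each line. In HEK293T, 43 members were lower at 1 rpm than in AggreWell (33.8% of all genes) and 12 higher (41.8% of all genes), and 45 were lower at 30 rpm than in AggreWell (38.7% of all genes) and 14 higher (39.9% of all genes). In PANC-1, 56 members were lower at 1 rpm than in AggreWell (38.4% of all genes) and 10 higher (43.7% of all genes), whereas 43 were lower at 30 rpm (37.8% of all genes) and 23 higher (45.4% of all genes), or 11 higher with the trend over gene length removed (41.3% of all genes). The median changes were -0.16 and -0.21 in HEK293T and -0.32 and -0.16 in PANC-1, at 1 rpm and 30 rpm, the last of which was -0.31 with the length trend removed. MRPL1, which forms the stalk where spent tRNA leaves the ribosome, had the largest fall in PANC-1, with 14.6, 14.8 and 13.3 FPKM at 1 rpm and 13.3, 14.1 and 14.1 FPKM at 30 rpm, against 31.9, 32.6 and 32.9 FPKM in AggreWell. Those changes were -1.14 and -1.18 (limma adjusted p 8.5e-11 and 5.1e-11), without overlap. MRPL55, MRPL34 and MRPL10 were higher in PANC-1 DRCC at 30 rpm than in AggreWell, by 1.10, 0.94 and 0.61.

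The rotation speeds were compared within each line. In PANC-1, 16 members were lower at 30 rpm than at 1 rpm (31.9% of all genes) and 41 higher (36.2% of all genes), with a median change of 0.12. With the trend over gene length removed, 27 were lower (33.2% of all genes) and 28 higher (32.9% of all genes), and the median was -0.0092. MRPL41, a mitochondria-specific large-subunit protein, had 91.9, 80.4 and 94.9 FPKM at 30 rpm, against 48.5, 57.4 and 46.2 FPKM at 1 rpm, a change of 0.80 (SE 0.073, limma adjusted p 4.9e-07). MRPS6 moved the other way, with 133, 131 and 144 FPKM at 30 rpm, against 209, 205 and 210.3 FPKM at 1 rpm, a change of -0.61. In HEK293T, 22 members were lower at 30 rpm than at 1 rpm (32.9% of all genes) and 17 higher (19.6% of all genes), counts near the shares of all genes. Their median of 0.015 was -0.0046 without replicate 1 at 1 rpm and between 0.00071 and 0.038 when each of the other libraries was left out in turn, and after median-ratio scaling 11 were lower (21.8% of all genes) and 33 higher (31% of all genes). MRPS18B rose most there, by 0.42, and MRPL33 fell most, to 38.1, 38.3 and 39.7 FPKM at 30 rpm, against 44.4, 58.2 and 50.6 FPKM at 1 rpm, a change of -0.38. Whether the effect of speed differed between the lines was not tested.

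The response to each format was then compared between the lines, which share no libraries. Against 2D in AggreWell, 54 members were called lower in both lines, where 16.1% of the 10752 genes tested in both were, 5 were called higher in both (32.9% of those genes) and 2 were called in opposite directions (8.31%). At 1 rpm, 56 were lower in both (21%), 3 higher in both (37.5%) and 12 opposite (16.7%), and at 30 rpm 52 were lower in both (19.1%), 4 higher in both (34.1%) and 12 opposite (21.9%). The share of members with opposite calls in DRCC was thus no higher than that of all genes. After median-ratio scaling 69, 64 and 60 were lower in both lines, 3, 1 and 1 higher in both, and 2, 5 and 4 had opposite calls, beside 33.7, 33.4 and 29.9%, 19.1, 24.2 and 23.4%, and 7.70, 17.2 and 21.5% of all genes. In a fit over all 24 libraries and 13392 genes, the change in HEK293T minus the change in PANC-1 was called lower for 48 members in AggreWell (25% of all genes) and higher for 4 (32% of all genes). At 1 rpm it was lower for 38 (35.8% of all genes) and higher for 18 (40% of all genes), and at 30 rpm lower for 45 (42% of all genes) and higher for 13 (37.5% of all genes), or for 27 with the trend over gene length removed (38% of all genes). The median difference was -0.23, -0.12 and -0.29 on the log2 scale, so that the fall in HEK293T exceeded that in PANC-1 for the median member, beside 0.029, 0.034 and -0.045 for the median gene. At 1 rpm it was -0.074 without PANC-1 2D replicate 1 and -0.19 without HEK293T 1 rpm replicate 3, and with the trend over gene length removed the medians at 1 rpm and 30 rpm were -0.068 and -0.075.

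MRPS6 was one of the members with the largest difference in AggreWell and at 1 rpm. In HEK293T it had 33.1, 38.7 and 33.1 FPKM in AggreWell, 23.4, 23.5 and 26.7 FPKM at 1 rpm and 18, 19.5 and 19.4 FPKM at 30 rpm, against 44, 41.5 and 42.4 FPKM in 2D. In PANC-1 it had 233, 239 and 236 FPKM in AggreWell, 209, 205 and 210.3 FPKM at 1 rpm and 133, 131 and 144 FPKM at 30 rpm, against 166, 179 and 170.3 FPKM in 2D. Every HEK293T 3D library was below 2D, whereas in PANC-1 AggreWell and 1 rpm libraries were above 2D and 30 rpm libraries below. The change was -0.28, -0.77 and -1.13 in HEK293T and 0.46, 0.27 and -0.34 in PANC-1, of which the rise at 1 rpm became 0.038 and was not called after median-ratio scaling. The difference between the lines was -0.74 in AggreWell and -1.05 at 1 rpm (limma adjusted p 6.5e-08 and 7.3e-11). SLC5A3, an inositol transporter gene whose annotation overlaps that of MRPS6, rose by 1.46, 1.39 and 1.16 in HEK293T and by 1.70, 1.40 and 0.67 in PANC-1, in AggreWell, at 1 rpm and at 30 rpm.

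MRPL34, the counterpart of a small bacterial protein of the large subunit, had the largest difference at 30 rpm. Its FPKM in HEK293T was 51.6, 56.3 and 53.1 in AggreWell, 57.8, 59.5 and 58.7 at 1 rpm and 44.8, 44.6 and 49.8 at 30 rpm, against 87.8, 90.4 and 87.3 in 2D, changes of -0.71, -0.58 and -0.92. Its FPKM in PANC-1 was 32.9, 31.6 and 35.3 in AggreWell, 41, 41.6 and 42.9 at 1 rpm and 66.4, 59.1 and 69.3 at 30 rpm, against 44, 45.1 and 43.7 in 2D, changes of -0.40, -0.080 (not called) and 0.54. At 30 rpm all HEK293T libraries were below 2D and all PANC-1 libraries above it, a difference of -1.46 (SE 0.071, limma adjusted p 6.2e-14). MRPL34 overlaps ABHD8 in the annotation, and ABHD8 rose by 0.43 in HEK293T and by 1.05 in PANC-1 at 30 rpm.

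MRPL1 rose in all HEK293T formats and in PANC-1 AggreWell but fell in PANC-1 DRCC. In HEK293T it had 22.9, 22.8 and 23.2 FPKM in AggreWell, 21.1, 22.4 and 19 FPKM at 1 rpm and 22.2, 19.2 and 22 FPKM at 30 rpm, against 11.9, 13.8 and 14.3 FPKM in 2D, changes of 0.74, 0.61 and 0.63. PANC-1 2D libraries had 15, 15.7 and 17.2 FPKM, against which the changes were 0.98 in AggreWell, -0.15 at 1 rpm and -0.19 at 30 rpm, all of the same sign and called after median-ratio scaling. The change at 1 rpm was -0.10 without 2D replicate 3 and -0.11 without 1 rpm replicate 3, neither of them called. The difference between the lines was 0.82 at 30 rpm (SE 0.092). MRPL48 rose in HEK293T, by 0.40, 0.59 and 0.42, and fell in PANC-1 at 1 rpm, with a change of -0.34. MRPL55 did the reverse at 30 rpm, with -0.22 in HEK293T and 0.74 in PANC-1. MRPL44 changed by -0.47 in HEK293T and 0.37 in PANC-1 at 1 rpm, the second of which was 0.14 after median-ratio scaling. MRPS26, a mitochondria-specific small-subunit protein, changed by -0.88 in HEK293T and by 0.078 in PANC-1 at 30 rpm, and the PANC-1 value turned to -0.16 after that scaling and was not called without 2D replicate 1 (0.057), 2D replicate 3 (0.075) or 30 rpm replicate 3 (0.065).

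**Figure D5:**
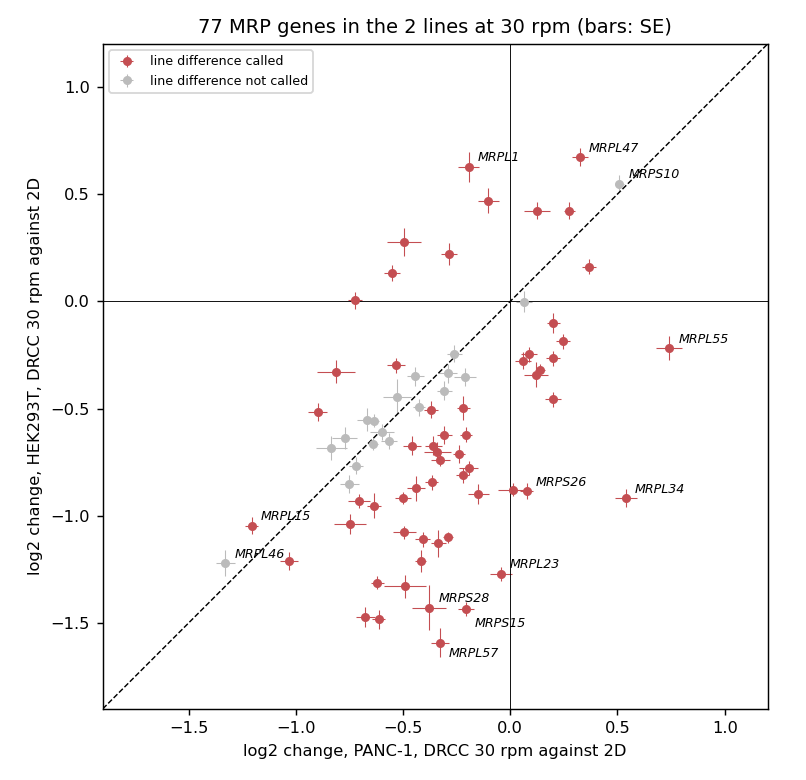
Log2 change of each member in DRCC at 30 rpm against 2D in HEK293T (vertical axis) and PANC-1 (horizontal axis), with SE bars; red points are members whose change differed between the lines in the 24-library fit. Of the 77 members, 52 were called lower in both lines, 45 had a difference below 0 and 13 a difference above 0, and MRPL34 lies farthest from the diagonal with -0.92 in HEK293T and 0.54 in PANC-1.

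The lines also differed in 2D. As deposited, 48 members were higher in HEK293T 2D than in PANC-1 2D (56.1% of all genes) and 18 lower (34.7% of all genes), with a median of 0.25 beside 0.27 for all genes, a count near the shares of all genes for higher members. After median-ratio scaling 28 were higher (44.9% of all genes) and 39 lower (45.3% of all genes) with a median of -0.091, so the direction of this difference for the family as a whole depends on the scaling. Single members differed by much more. MRPS6 had 44, 41.5 and 42.4 FPKM in HEK293T, against 166, 179 and 170.3 FPKM in PANC-1, a difference of -1.99 (SE 0.054). MRPS12, MRPS10 and MRPL47 were also lower in HEK293T, with differences of -1.53, -1.41 and -1.38. MRPL55 had 58.7, 57.1 and 62.5 FPKM in HEK293T, against 16.2, 16.9 and 15.9 FPKM in PANC-1, a difference of 1.80 (SE 0.064), and MRPS2, MRPL4 and MRPS26 differed by 1.73, 1.68 and 1.45.

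Each member was compared over the 8 group means with the mean log2 level of the other 76 members. Pearson's r ran between -0.83 for MRPL39 and 0.97 for MRPS16, with a median of 0.64; it was above 0.7 for 32 members and below 0 for 10. The points of one line share its cells, and the 3 lowest members were MRPL39, MRPS10 and MRPL47. Because the 8 means span both lines, r also reflects differences between the lines and not only the response to format. MRPS12 (r 0.017), MRPL35 (0.025) and MRPL17 (0.27) were each called lower in all 6 comparisons with 2D. The share of all genes with r above 0.7 is not given. Outside the family, the 5 genes whose group means were most like it were SNRPF (r 0.98), C1QBP (0.98), ATP5MC3 (0.98), GET3 (0.98) and SRSF1 (0.98). C1QBP, a protein of the mitochondrial matrix, had means of 422, 295 and 288 FPKM in HEK293T AggreWell, 1 rpm and 30 rpm against 767 FPKM in 2D, and 301, 205 and 242 FPKM in PANC-1 against 427 FPKM in 2D. SNRPF, a core protein of the spliceosome, had 217, 167 and 154 FPKM in HEK293T against 323 FPKM in 2D, and 190.4, 132 and 159 FPKM in PANC-1 against 262 FPKM in 2D. ATP5MC3 encodes the membrane ring subunit of ATP synthase.

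Some member values may include fragments of other loci or lack fragments that overlapping genes share. By the GRCh38.p14 RefSeq annotation, used here for names and neighbours, 76 members were found by symbol on 21 chromosomes, 41 had pseudogenes named after them and 23 were overlapped by another gene of the table. No label or header states whether strand was used in counting, so overlapping or near-identical genes cannot be separated. MRPL14 and the overlapping TMEM63B changed in opposite directions, by -1.04 and 0.92 in HEK293T at 30 rpm, and MRPL47 rose by 0.33 in PANC-1 at 30 rpm where the overlapping ACTL6A changed by -0.77. Starts of 15 members faced that of a neighbour head to head. MRPS12 and SARS2, a mitochondrial seryl-tRNA synthetase, start 181 bases apart; SARS2 fell at 1 rpm and 30 rpm in HEK293T, with changes of -0.86 and -0.61, and in PANC-1, with changes of -0.39 and -0.48, but was not called in AggreWell of either line (-0.072 and -0.030), where MRPS12 changed by -0.94 in HEK293T and -0.55 in PANC-1.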

How the data were processed

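Values in FPKM for 26450 genes and 24 libraries were taken as deposited. The tools named per the submitters' processing notes are fastp, HISAT2, HTSeq and R 3.2.0, with mm10 as the build, although the table holds human symbols. TRIzol extraction of total RNA and a VAHTS Universal V10 library kit are recorded per the labels' protocols. Strand and read length are not given in the sources used here. The FPKM steps of 26449 of 26450 genes gave whole fragments (tolerance 0.01), all 77 members included, which gave the fragment totals; intervals from them would cover counting error only.

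FPKM was taken as log2(FPKM + 1), and genes with at least 1 FPKM in at least 3 libraries were kept. limma 3.58.1 with an intensity trend (R 4.3.3; tables with Python 3.11.15 and pandas 2.3.3) was fitted per line over 12 libraries, and over 24 for differences between lines, with Benjamini-Hochberg adjustment over all genes. On simulated data for AggreWell against 2D, 95 and 98 of 100 genes changed 1.25-fold and 1.5-fold were called in PANC-1 with 9 false calls among 11585 genes, and 89 and 98 in HEK293T with 10 among 12548. In the data, 24.1% of genes were called lower and 45.9% higher in PANC-1, and 26.8% and 48.6% in HEK293T. With only 100 genes changed, the simulation cannot give the error of calls under so broad a shift. The tests used the FPKM values as deposited, and no count test was run on the recovered fragments.

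Members, gene lists, motifs and alternatives were chosen with earlier results of these data known. Members named in the text are up to 6 called members per comparison with the largest rise and fall and no overlap, the 5 most and least abundant in 2D, the 6 largest line differences per format, members called in one direction throughout, the MRPS18 paralogs and MRPS36; up to 4 genes are named per other list. MRPS22, YY1, GABPB1, PPARGC1B, PPRC1, ESRRA, DAP3, the promoters shown and genes named as overlapping or neighbouring were chosen after their values were seen. Same-numbered libraries deviated together with r of -0.097 to 0.43 (median 0.073) in HEK293T and -0.092 to 0.11 (median -0.030) in PANC-1, so the numbers were not taken as pairs. Alternative settings were median-ratio scaling, a pseudocount of 0.1, dropping the filter on low genes, a mean of at least 5 FPKM, a replicate block, only the 2 formats compared in the fit, each library left out in turn and, chosen after seeing the data, removal of the trend with gene length.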

Additional observations from a re-analysis of the deposited data

Results flagged for a closer look

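The members named here are those whose change against 2D differed most between the lines in the 24-library fit; each value is the log2 change in HEK293T minus that in PANC-1, tested directly with limma (Benjamini-Hochberg adjusted p of at most 8.65e-06). In AggreWell the differences were -0.74 for MRPS6, -0.56 for MRPL40, -0.51 for MRPS21, -0.50 for MRPL24, -0.49 for MRPL16 and -0.49 for MRPL20. MRPS6 and MRPS21 fell in HEK293T (-0.28 and -0.43) and rose in PANC-1 (0.46 and 0.082), of which the rise of MRPS21 turned to -0.11 after median-ratio scaling and was not called when 2D replicate 1 or 2 or AggreWell replicate 2 or 3 was left out (0.058 to 0.089). The other members named fell more in HEK293T.

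In DRCC at 1 rpm the differences were -1.05 for MRPS6, 0.93 for MRPL48, -0.88 for MRPS15, -0.86 for MRPL16, -0.84 for MRPL44 and -0.81 for MRPL23. MRPL48 was the one that was higher in HEK293T (0.59) than in PANC-1 (-0.34).

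In DRCC at 30 rpm the differences were -1.46 for MRPL34, -1.26 for MRPL57, -1.23 for MRPS15, -1.23 for MRPL23, -1.05 for MRPS28 and -0.96 for MRPS26. MRPL23 fell in HEK293T, to 16.2, 15.8 and 15.3 FPKM at 30 rpm against 39.5, 38.7 and 40.3 FPKM in 2D, and had 20.6, 22.6 and 21 FPKM at 30 rpm against 20.7, 23.4 and 22.2 FPKM in 2D in PANC-1, where its change of -0.045 had a limma adjusted p of 0.42. MRPS15 had 46.7, 47.2 and 47.9 FPKM at 30 rpm against 131, 129 and 128 FPKM in 2D in HEK293T, and 97.5, 91.3 and 101 FPKM against 113, 116 and 107 FPKM in PANC-1.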

How the results depend on the processing

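Values under the alternatives were taken for every member called against 2D and for the members named by rule in the other comparisons. Of these 10337 values, 10243 kept direction and call, 70 kept direction and were no longer called and 24 reversed, all of them small rises as deposited that turned under median-ratio scaling or with the length trend removed. Median-ratio scaling turned, in PANC-1 against 2D, MRPL42 (-0.017), MRPL50 (-0.042) and MRPS21 (-0.11) in AggreWell, MRPL39 (-0.0094), MRPL47 (-0.13), MRPL49 (-0.095) and MRPS21 (-0.15) at 1 rpm, and MRPL43 (-0.033), MRPL44 (-0.039), MRPL49 (-0.10), MRPS25 (-0.14), MRPS26 (-0.16) and MRPS30 (-0.038) at 30 rpm. In HEK293T it turned MRPS31 in AggreWell (-0.0089), MRPL42 (-0.12) and MRPS31 (-0.11) at 1 rpm, and MRPL10 (-0.045) and MRPS9 (-0.073) at 30 rpm. Removing the length trend turned MRPL42 in PANC-1 AggreWell (-0.11) and in HEK293T at 1 rpm (-0.42) and 30 rpm (-0.27), and MRPL49 (-0.045), MRPS25 (-0.079) and MRPS26 (-0.13) in PANC-1 at 30 rpm. Median-ratio scaling changed these counts of members: called higher in PANC-1 against 2D, 4 in AggreWell, 3 at 1 rpm and 4 at 30 rpm; called higher in HEK293T against 2D, 5 at 1 rpm and 6 at 30 rpm; HEK293T 30 rpm against 1 rpm, 11 lower and 33 higher, with a median of 0.098; and HEK293T 2D against PANC-1 2D, 39 lower and 28 higher, with a median of -0.091. With the length trend removed, 6 members were higher at 30 rpm against 2D and 11 at 30 rpm against AggreWell in PANC-1, 27 were lower at 30 rpm than at 1 rpm in PANC-1 with a median of -0.0092, 27 had a difference between lines above 0 at 30 rpm, and HEK293T 2D against PANC-1 2D gave 42 lower and 28 higher with a median of -0.14. The cause was not tested. Leaving out 1 library moved the median at 30 rpm against 1 rpm in HEK293T between -0.0046 (without 1 rpm replicate 1) and 0.038 (without 30 rpm replicate 2). The median line difference at 1 rpm was -0.074 without PANC-1 2D replicate 1 and -0.19 without HEK293T 1 rpm replicate 3. With the replicate block, which the data do not show to pair libraries, 21 members were higher at 30 rpm than at 1 rpm in HEK293T. Depth was 32021638 to 39556154 fragments, and the fewest fragments of a member in a library were 53, for MRPS28.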
